A study of Rattus norvegicus with 21 samples.

Results

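The proteasome, the protease complex that degrades ubiquitin-tagged proteins, was described through 38 genes in rat NBTII bladder carcinoma cells. The genes were those with a probe set of a single annotated symbol that starts with Psma, Psmb, Psmc, Psmd or Psme and a digit. They are 38 of 10411 genes on the arrays, and 41 of the 15866 probe sets tested. Each gene was read from its probe set with the highest mean over the 21 arrays, so the choice used no difference between groups. The symbols fit the label for 36 genes, which encode subunits, activators or assembly chaperones of the proteasome. The other two, Psmc3ip, a meiotic recombination factor, and Psme3ip1, a partner of the PA28 gamma activator, are called by their symbols and are described apart. Psmb6, Psme3 and Psma3l were among the symbols of 6 probe sets that list several, and were not analysed here.

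NBTII-FGFR1, which is NBTII transfected with the FGF receptor 1, was set against NBTII itself. Both lines were given FGF1 at 20 ng/ml with heparin, and total RNA was taken at 0, 0.5, 2, 6, 24 and 48 h. NBTII-FGFR1 has 2 arrays per time and 1 at 0.5 h, and NBTII has 2 arrays per time and 1 at 0 h and at 0.5 h, which gives 11 and 10 arrays. The labels name neither the promoter of the transfected receptor nor whether the line is a single clone. No array after 0 h lacks FGF1, so the ligand, heparin, time and handling cannot be told apart. Nothing in the labels tells whether the replicates were separate cultures. The p-values therefore reflect the spread of these samples alone, and it may be technical. The number of arrays limits the precision.

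The 20S core of the proteasome is a barrel of stacked rings, with outer alpha rings that form the gate and inner beta rings that hold the cutting sites. The 19S cap binds ubiquitin-tagged proteins, unfolds them with a ring of ATPases and feeds them in. Under interferon, newly made proteasomes carry the immunosubunits Psmb9, Psmb10 and Psmb8 in place of Psmb6, Psmb7 and Psmb5, and the PA28 activator, built of Psme1 and Psme2, can take the place of the cap. The immunoproteasome is known for supplying peptides for antigen presentation.

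Levels are log2 RMA values, and a difference is a log2 difference ± SE from a linear model over the 12 groups of line and time. Verbs of change are kept for genes with an adjusted p under 0.05, adjusted over all 15866 probe sets. The array medians were 6.13 to 6.21. Of 9 epithelial markers measured, 7 lay above the array's lower quartile on all 21 arrays (Cdh1, Krt5, Krt8, Krt14, Epcam, Dsp and Jup). Of 8 leukocyte markers, 5 did (Cd68, Cd14, Cd4, Itgam and Lyz2), of 7 fibroblast markers 2 did, and of 3 endothelial markers 0 did. The table has no detection calls, so the lower quartile (4.36 to 4.54) is only a guide. Of the 38 genes, 37 lay above it on all 21 arrays, and Psmb8 did on 20. In such bulk RNA, a change in the number of cells of a type and a change in RNA per cell cannot be told apart.

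Some arrays stood apart. Fgfr1, the transfected gene, went against the label of the library NBTII-FGFR1 0 h replicate 1, where it read 3.57. Fgfr1 read 5.92 in replicate 2, and NBTII at 0 h read 3.97. Other genes went both ways. The stress-defence genes Hmox1 and Txnrd1 read 7.94 and 9.11 in both NBTII-FGFR1 0 h arrays, against 7.43 and 8.66 in NBTII at 0 h. Psme3ip1, described below, went with Fgfr1. Whether the label is wrong was not tested. Fgfr1 was also uneven in the NBTII-FGFR1 24 h pair, with 4.56 in replicate 1 and 6.14 in replicate 2. The NBTII arrays read 3.58 to 4.05. In the NBTII-FGFR1 2 h pair, 11 of the 13 genes of the 20S rings were higher in replicate 2 than in replicate 1, with a median difference of 0.28 between them, while the median over all probe sets was -0.01. Irf1, a transcription factor of the interferon response, read 7.60 in that replicate 1 and 4.57 in replicate 2. At 0.5 h Irf1 read 7.61 in NBTII-FGFR1 and 6.77 in NBTII, with 1 array each. At 0 h it read 4.75 and 4.86 in NBTII-FGFR1 and 5.24 in NBTII. The spiked-in poly-A controls had medians of 6.39 to 7.07 at 0 h and lower ones later, so comparisons with 0 h carry that difference too. Their part in the results was not tested.

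Most genes of the proteasome core were called in no comparison. Over the 21 arrays the range of a gene had a median of 0.57 for the 27 genes of the 20S rings and the 19S cap, 0.64 for all 38 genes and 0.75 for all probe sets. The narrowest were Psmd2, a scaffold of the cap, and the ATPase Psmc2, with ranges of 0.37 each, and the widest in the core was Psma3, an alpha ring subunit, with 1.06. Of the 27 core genes, 22 were called in none of the 17 comparisons made. Over all 38 genes, 24 were called in none, and 25 calls fell on the other 14 genes. How many of all probe sets were called in none was not counted, so these counts have no background beside them. The widest ranges, seen in the plot of all members by array, were those of Psmb10 (1.70), Psmd10 (1.60), Psmb8 (1.38), Psma3 and Psmb9 (1.04).

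**Figure D1:**
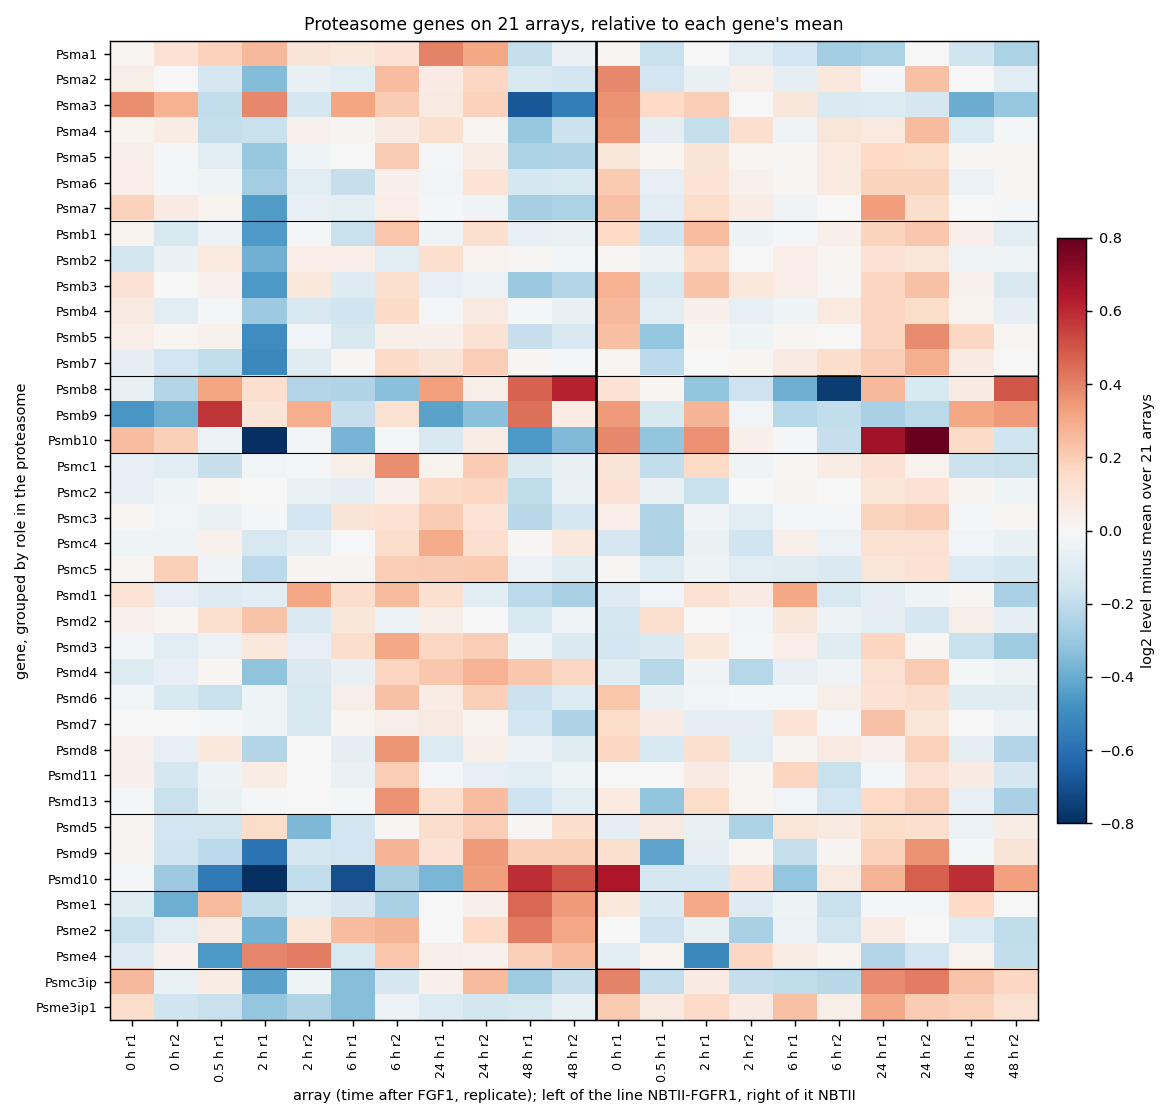
Log2 level of each of the 38 genes minus its mean over the 21 arrays (colour, limits -0.8 and 0.8, values beyond them shown at the limit), with NBTII-FGFR1 arrays left of NBTII arrays, and genes in rows by role. The 20S rings are pale on most arrays, and NBTII-FGFR1 2 h replicate 1 (2 h r1) is lower for them; Psmd10, Psmb10, Psmb8 and Psma3 have the strongest colours.

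In NBTII-FGFR1 the share of called members was below that of all probe sets at 2, 6, 24 and 48 h against 0 h. At 6 h against 0 h, limma called 0 of the 38 genes, with 5 at an unadjusted p under 0.05, while 21.3% of all probe sets were called. At 24 h against 0 h it called 0, with 4 at an unadjusted p under 0.05, against 6.3% of all probe sets. At 2 h against 0 h it called 1 gene, the immunosubunit Psmb9, against 9.35% of all probe sets (5.27% higher). These counts leave room for changes: at 6 h against 0 h, 28 of the 38 genes had a 95% interval within 0.5 of 0 on the log2 scale.

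At 48 h the calls were 6 against 0 h, of which 4 were higher, and 7 against 2 h, of which 6 were higher. Of all probe sets, 21.4% were called against 0 h (10.5% higher and 10.9% lower) and 17.7% against 2 h (8.31% higher and 9.38% lower), so the members' share was below the background at 48 h against 0 h (15.8%) and near it at 48 h against 2 h (18.4%). Without both doubted arrays, which are the library labelled 0 h replicate 1 and 2 h replicate 1, 2 genes were called at 48 h against 2 h. Both comparisons use the same 48 h arrays. At 48 h the summed log2 level of the 9 epithelial markers was 76.7 to 77.3 in NBTII-FGFR1, against 89.2 to 91.0 at 2 h, and in NBTII it was 79.8 to 82.6, against 88.9 to 90.8 at 2 h. The summed level of the 8 leukocyte markers in NBTII-FGFR1 was 39.4 to 40.2 at 48 h, against 38.7 to 39.9 at 2 h. Their part in the results at 48 h was not tested. Between 2 h and the middle of the course, 1 gene rose at 6 h (all probe sets: 17%, with 7.4% higher), and 3 rose and 1 fell at 24 h (all probe sets: 12.9%, with 6.67% higher and 6.27% lower).

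In NBTII, limma called 0 of the 38 genes in each of the 7 comparisons over time. Against 0 h, unadjusted p was under 0.05 for 3 genes at 2 h, 5 at 6 h, 2 at 24 h and 4 at 48 h, and 2.94%, 5.9%, 0.939% and 0.908% of all probe sets were called. Against 2 h, it was under 0.05 for 1 gene at 6 h, 7 at 24 h and 3 at 48 h, and 3.3%, 8.32% and 5.02% of all probe sets were called. NBTII has 1 array at 0 h, which widens the intervals there. At 48 h against 2 h, with 2 arrays on each side, 28 of the 38 genes had an interval within 0.5 of 0. At 0.5 h against 0 h over both lines limma called 0 genes, with 8 at an unadjusted p under 0.05, all lower, and 2.2% of all probe sets were called.

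Whether the lines differed in their course was tested itself. For the line by time difference over 2 to 48 h, limma called 0 of the 38 genes, with 0 at an unadjusted p under 0.05, and 0.441% of all probe sets were called. The smallest adjusted p was 0.343, for Psme2. The calls made in NBTII-FGFR1 against 2 h are therefore not shown to differ between the lines. The calls against 0 h were not put to a test between the lines.

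**Figure D2:**
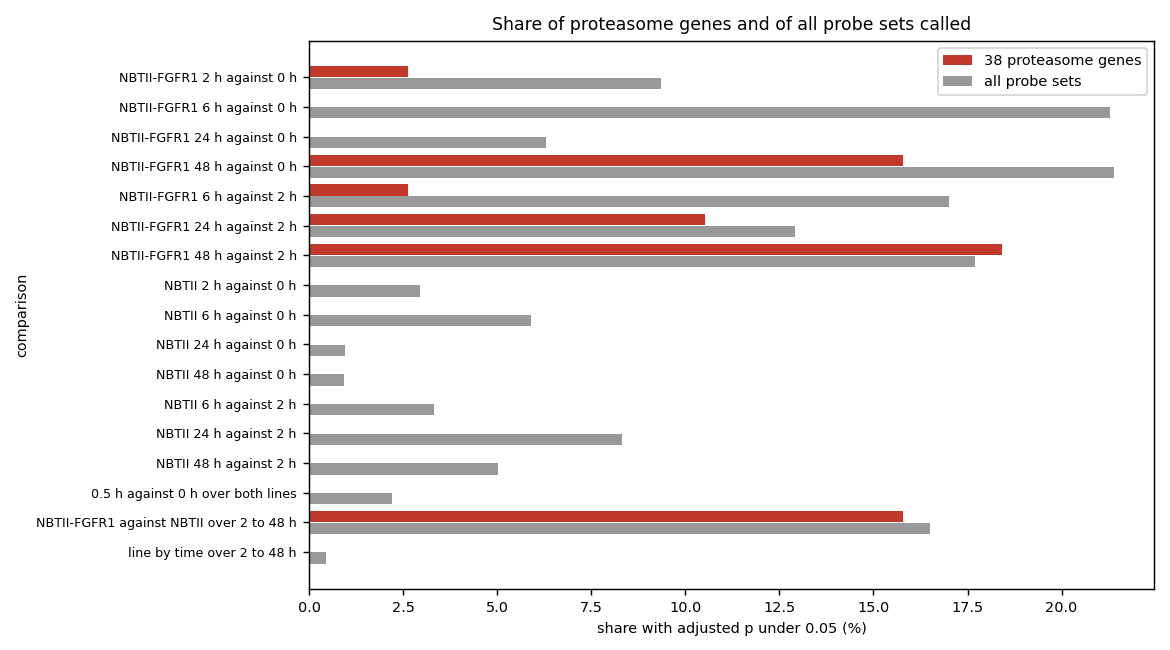
Share of the 38 proteasome genes (red) and of all 15866 probe sets (grey) with an adjusted p under 0.05, in percent, for each of the 17 comparisons. The members' bars reach 18.4% at 48 h against 2 h in NBTII-FGFR1 and are absent in the NBTII comparisons over time.

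Psmb8 and Psmb9, immunosubunits that carry cutting sites, rose at 48 h in NBTII-FGFR1, whereas the third, Psmb10, was not called there. The signals of Psmb8 (4.26 to 5.63) and Psmb9 (4.67 to 5.71) were dim. They lay below the array medians (6.13 to 6.21) on all 21 arrays, not far from the lower quartile (4.36 to 4.54). Psmb8 read 4.96 and 4.78 at 0 h, 5.33 at 0.5 h, 5.15 and 4.79 at 2 h, 4.78 and 4.68 at 6 h, 5.34 and 5.06 at 24 h, and 5.49 and 5.63 at 48 h in NBTII-FGFR1. In NBTII it read 5.14 at 0 h, 5.04 at 0.5 h, 4.70 and 4.86 at 2 h, 4.63 and 4.26 at 6 h, 5.28 and 4.89 at 24 h, and 5.08 and 5.52 at 48 h. Both NBTII-FGFR1 arrays at 48 h lay above every earlier array of that line, and the lowest array of each line was at 6 h. The rise was 0.69 ± 0.18 against 0 h (adjusted p = 0.0136) and 0.59 ± 0.18 against 2 h (adjusted p = 0.0376). In NBTII the difference of 48 h against 2 h was 0.52, with a 95% interval of 0.13 to 0.92 (adjusted p = 0.136). Without 0 h replicate 2 the rise against 0 h was 0.60 (adjusted p = 0.101), and after repeated quantile normalization the adjusted p of the rise against 2 h was 0.0607.

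Psmb9 read 4.67 and 4.75 at 0 h, 5.71 at 0.5 h, 5.24 and 5.43 at 2 h, 4.96 and 5.26 at 6 h, 4.71 and 4.80 at 24 h, and 5.58 and 5.20 at 48 h in NBTII-FGFR1. The NBTII arrays read 5.48 at 0 h, 5.02 at 0.5 h, 5.41 and 5.12 at 2 h, 4.91 and 4.94 at 6 h, 4.88 and 4.92 at 24 h, and 5.45 and 5.48 at 48 h. In NBTII-FGFR1 it was thus high at 0.5 and 2 h, low at 24 h and high again at 48 h, and both 0 h arrays lay below every array of 2, 6 and 48 h. It rose by 0.62 ± 0.14 at 2 h (adjusted p = 0.0139) and by 0.68 ± 0.14 at 48 h (adjusted p = 0.00311) against 0 h, and fell by 0.58 ± 0.14 at 24 h against 2 h (adjusted p = 0.0152). At 2 h against 0 h the call was lost without both doubted arrays (0.68, adjusted p = 0.0882), and at 48 h without 48 h replicate 1 (0.49, adjusted p = 0.0661). At 48 h against 2 h the difference was 0.06, with an interval of -0.25 to 0.36, and it was not called.

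Psmb10 read 7.24 and 7.18 at 0 h, 6.94 at 0.5 h, 6.10 and 6.97 at 2 h, 6.62 and 6.98 at 6 h, 6.86 and 7.05 at 24 h, and 6.53 and 6.63 at 48 h in NBTII-FGFR1. Its NBTII values were 7.37 at 0 h, 6.67 at 0.5 h, 7.35 and 7.03 at 2 h, 6.97 and 6.80 at 6 h, 7.66 and 7.81 at 24 h, and 7.14 and 6.83 at 48 h. It had the widest range of the 38 genes, 1.70, and the NBTII arrays at 24 h were the highest. Against 0 h in NBTII-FGFR1 it differed by -0.67 at 2 h (adjusted p = 0.0718) and by -0.63 at 48 h (adjusted p = 0.0551), and neither passed the threshold. Over 21 arrays it correlated at a median r of 0.75 with the 13 genes of the 20S rings, and at -0.19 with Psmb8 and -0.20 with Psmb9, which share the arrays and their differences in level.

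**Figure D3:**
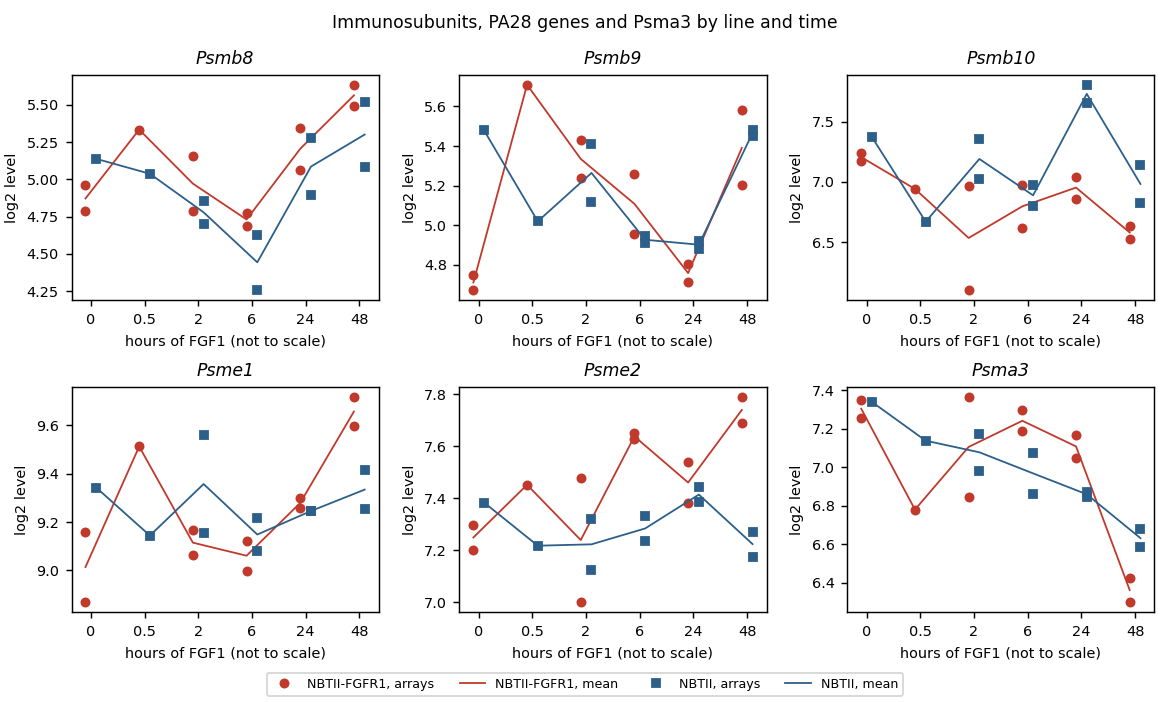
Log2 level by hours of FGF1 for the immunosubunits Psmb8, Psmb9 and Psmb10, the PA28 genes Psme1 and Psme2, and Psma3, in NBTII-FGFR1 (red circles) and NBTII (blue squares); points are arrays and lines join the group means. At 48 h the NBTII-FGFR1 arrays are the highest of that line for Psmb8, Psme1 and Psme2 and the lowest for Psma3.

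The promoters of the 4 genes that rose at 48 h against 0 h in NBTII-FGFR1 are shown beside Psmb10, which was not called there, for their matches to interferon motifs. They are the RefSeq start sites in GRCr8 with 250 bases before to 50 after each, on the strand of the gene: Psmb8 at chr20:4656982-4657281 (minus), Psmb9 at chr20:4668750-4669049 (plus), Psmb10 at chr19:50743243-50743542 (minus), Psme1 at chr15:33038721-33039020 (plus) and Psme2 at chr15:33052702-33053001 (minus). Capitals mark the interferon-stimulated response element (GAAA, 2 bases of any kind, GAAA) and the interferon gamma activated site (TTCNNNGAA), searched on both strands.
Psmb8: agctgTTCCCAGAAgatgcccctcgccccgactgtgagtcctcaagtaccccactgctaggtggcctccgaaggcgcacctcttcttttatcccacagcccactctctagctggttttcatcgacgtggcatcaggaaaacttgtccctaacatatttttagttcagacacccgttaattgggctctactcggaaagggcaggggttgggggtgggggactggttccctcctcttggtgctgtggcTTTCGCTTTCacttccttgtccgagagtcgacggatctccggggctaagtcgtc
Psmb9: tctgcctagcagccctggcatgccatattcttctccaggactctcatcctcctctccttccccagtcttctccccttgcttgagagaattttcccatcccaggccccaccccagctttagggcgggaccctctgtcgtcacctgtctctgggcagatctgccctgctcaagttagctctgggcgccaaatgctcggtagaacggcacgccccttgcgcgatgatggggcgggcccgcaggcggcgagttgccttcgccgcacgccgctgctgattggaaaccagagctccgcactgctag
Psmb10: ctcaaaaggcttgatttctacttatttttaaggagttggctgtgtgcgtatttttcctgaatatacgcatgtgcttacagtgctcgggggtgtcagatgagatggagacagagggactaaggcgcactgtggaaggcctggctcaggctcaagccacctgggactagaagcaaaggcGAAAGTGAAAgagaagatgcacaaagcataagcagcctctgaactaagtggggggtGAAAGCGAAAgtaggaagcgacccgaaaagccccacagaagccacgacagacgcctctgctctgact
Psme1: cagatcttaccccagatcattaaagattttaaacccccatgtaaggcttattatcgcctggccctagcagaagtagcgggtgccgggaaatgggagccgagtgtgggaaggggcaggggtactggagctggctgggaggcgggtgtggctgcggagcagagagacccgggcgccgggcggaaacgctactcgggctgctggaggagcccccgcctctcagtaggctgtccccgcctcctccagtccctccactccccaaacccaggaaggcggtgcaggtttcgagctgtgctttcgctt
Psme2: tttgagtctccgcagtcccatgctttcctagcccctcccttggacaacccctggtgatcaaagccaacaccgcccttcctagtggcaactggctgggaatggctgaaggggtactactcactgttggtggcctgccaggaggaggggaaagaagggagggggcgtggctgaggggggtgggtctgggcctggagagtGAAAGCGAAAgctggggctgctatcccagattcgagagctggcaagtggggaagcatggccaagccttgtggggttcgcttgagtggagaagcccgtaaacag

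The interferon-stimulated response element stood in 6 of the 36 member promoters that RefSeq matched (Psma4, Psmb3, Psmb8, Psmb10, Psmd7 and Psme2), and in 3.92% of all 33469 promoters of this length. The interferon gamma activated site stood in 3 (Psmb8, Psmd3 and Psmd7), and in 8.87% of all promoters. Psmb9 and Psme1, which rose, hold neither in this window, and Psmb10 holds 2 copies of the first. The last bases of the Psme1 window match the start of the first motif read on the other strand. A copy that crosses the end of the window was not searched. Another motif, the antioxidant response element TGACNNNGC, stood in 7 (Psma3, Psmb2, Psmb5, Psmd1, Psmd3, Psmd9 and Psme4), and in 12.1% of all promoters. A match is only a description of the letters. Psmb9 shares its start region with Tap1, the peptide transporter gene, which runs the other way with 457 bases between the start sites.

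Psmb5 and Psmb7, constitutive counterparts of Psmb8 and Psmb10, were read beside them. Psmb5 read 11.80 and 11.76 at 0 h, 11.78 at 0.5 h, 11.25 and 11.73 at 2 h, 11.62 and 11.79 at 6 h, 11.79 and 11.86 at 24 h, and 11.56 and 11.62 at 48 h in NBTII-FGFR1. NBTII arrays gave 11.99 at 0 h, 11.44 at 0.5 h, 11.75 and 11.71 at 2 h, 11.77 and 11.75 at 6 h, 11.92 and 12.12 at 24 h, and 11.91 and 11.76 at 48 h. It was called in none of the 17 comparisons, and its lowest array was NBTII-FGFR1 2 h replicate 1. Psmb7 read 11.48 and 11.40 at 0 h, 11.36 at 0.5 h, 11.04 and 11.46 at 2 h, 11.57 and 11.70 at 6 h, 11.66 and 11.75 at 24 h, and 11.57 and 11.54 at 48 h in NBTII-FGFR1. Values in NBTII were 11.57 at 0 h, 11.34 at 0.5 h, 11.56 and 11.57 at 2 h, 11.62 and 11.69 at 6 h, 11.75 and 11.85 at 24 h, and 11.62 and 11.55 at 48 h. In NBTII-FGFR1 it rose by 0.39 ± 0.12 at 6 h (adjusted p = 0.0449) and by 0.46 ± 0.12 at 24 h (adjusted p = 0.0248) against 2 h. Both calls rest on 2 h replicate 1, since without it the differences were 0.18 and 0.25 (adjusted p = 0.382 and 0.246).

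The PA28 genes Psme1 and Psme2, which form the activator ring, rose at 48 h in NBTII-FGFR1. Psme1 read 9.16 and 8.87 at 0 h, 9.51 at 0.5 h, 9.06 and 9.17 at 2 h, 9.12 and 9.0 at 6 h, 9.26 and 9.30 at 24 h, and 9.72 and 9.60 at 48 h in NBTII-FGFR1. In the NBTII arrays it read 9.34 at 0 h, 9.14 at 0.5 h, 9.56 and 9.15 at 2 h, 9.22 and 9.08 at 6 h, 9.24 and 9.25 at 24 h, and 9.42 and 9.25 at 48 h. The 48 h arrays of NBTII-FGFR1 lay above the line's other arrays, and those of NBTII lay among the line's other arrays. The rise was 0.64 ± 0.14 against 0 h (adjusted p = 0.0036) and 0.54 ± 0.14 against 2 h (adjusted p = 0.0136), and in NBTII the difference against 2 h was -0.02, with an interval of -0.32 to 0.27. Without 0 h replicate 2 the rise against 0 h was 0.50 (adjusted p = 0.0542), and without 48 h replicate 1 that against 2 h was 0.48 (adjusted p = 0.12).

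Psme2 read 7.20 and 7.30 at 0 h, 7.45 at 0.5 h, 7.0 and 7.48 at 2 h, 7.63 and 7.65 at 6 h, 7.38 and 7.54 at 24 h, and 7.79 and 7.69 at 48 h in NBTII-FGFR1. NBTII values were 7.38 at 0 h, 7.22 at 0.5 h, 7.32 and 7.12 at 2 h, 7.33 and 7.24 at 6 h, 7.44 and 7.39 at 24 h, and 7.27 and 7.18 at 48 h. The 48 h arrays of NBTII-FGFR1 were its highest, while the NBTII arrays stayed within 7.12 to 7.44. The rise was 0.49 ± 0.14 against 0 h (adjusted p = 0.0188) and 0.50 ± 0.14 against 2 h (adjusted p = 0.0208), and in NBTII the difference against 2 h was 0.00, with an interval of -0.29 to 0.30. Without 2 h replicate 1 the rise against 2 h was 0.26 (adjusted p = 0.231), and without 48 h replicate 1 that against 0 h was 0.44 (adjusted p = 0.135).

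Genes that act with the immunosubunits in antigen processing were counted as a list of 11, of which 9 were measured. At 48 h against 0 h in NBTII-FGFR1, 4 of the 9 rose and 0 fell, while 21.4% of all probe sets were called and 10.5% were called higher. The median was 0.36 in the list and -0.04 over all probe sets. B2m, the light chain of class I molecules, rose by 1.32 ± 0.16, the transporter genes Tap2 and Tap1 by 0.93 ± 0.14 and 0.77 ± 0.14, and Calr, a folding chaperone, by 0.88 ± 0.16. Each of these 4 calls held without any 1 array and without both doubted arrays. Against 2 h, B2m (1.11 ± 0.16) and Calr (0.65 ± 0.16) rose, while 8.31% of all probe sets were called higher. In NBTII, Calr alone rose at 48 h against 0 h (1.15 ± 0.19), where 0.908% of all probe sets were called. The list's median in that comparison was 0.35, close to that in NBTII-FGFR1, and 0.01 over all probe sets. There 4 of the 9 had an unadjusted p under 0.05, with 1 NBTII array at 0 h. Against 2 h limma called 0 genes of the list in NBTII, with 3 at an unadjusted p under 0.05, and 5.02% of all probe sets were called. The list's median at 48 h against 2 h was 0.28 in NBTII-FGFR1 and 0.28 in NBTII, against 0.03 and 0.02 over all probe sets. Earlier, Tap1 (0.55 ± 0.14) and Tap2 (0.51 ± 0.14) rose at 2 h against 0 h in NBTII-FGFR1, while 5.27% of all probe sets were called higher. At 0.5 h over both lines they rose by 0.62 ± 0.13 and 0.59 ± 0.14, while 2.2% of all were called. At 6 h against 0 h in NBTII-FGFR1 B2m rose (0.60 ± 0.16) and Erap1 fell (-0.50 ± 0.15), while 21.3% of all were called.

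Psma3, an alpha ring subunit, fell at 48 h in NBTII-FGFR1. It read 7.35 and 7.26 at 0 h, 6.78 at 0.5 h, 7.36 and 6.85 at 2 h, 7.30 and 7.19 at 6 h, 7.05 and 7.17 at 24 h, and 6.30 and 6.43 at 48 h in NBTII-FGFR1. The values in NBTII were 7.34 at 0 h, 7.14 at 0.5 h, 7.17 and 6.98 at 2 h, 7.07 and 6.86 at 6 h, 6.87 and 6.85 at 24 h, and 6.59 and 6.68 at 48 h. In both lines the 48 h arrays were the lowest. In NBTII-FGFR1 it fell by 0.94 ± 0.15 against 0 h (adjusted p = 0.000374) and by 0.74 ± 0.15 against 2 h (adjusted p = 0.00274), and both calls held in all 18 fits that left out 1 array. In NBTII the differences were -0.71 (interval -1.09 to -0.32, adjusted p = 0.0843) and -0.45 (interval -0.76 to -0.13, adjusted p = 0.109). The rat table lists 2 pseudogene entries for Psma3, and several members carry more (34 entries over 13 genes), and whether the probes also bind transcripts of such copies was not tested.

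Psma7, another alpha ring subunit, fell by 0.38 ± 0.12 at 48 h against 0 h in NBTII-FGFR1 (adjusted p = 0.038), with 11.25 and 11.26 at 48 h against 11.70 and 11.58 at 0 h. Without the library labelled 0 h replicate 1 the difference was -0.32 (adjusted p = 0.215). All 7 alpha ring genes were below 0 h at 48 h in NBTII-FGFR1, with a median of -0.26, and Psma3 and Psma7 were the 2 called. In NBTII all 7 were below 0 h at 2, 6 and 48 h, with medians of -0.14, -0.25 and -0.24 and 0 calls by limma, with 2, 1 and 3 of them at an unadjusted p under 0.05. These NBTII differences all rest on 1 array at 0 h, which had the highest median deviation of the alpha ring genes from their means over the 21 arrays (0.24). Over both lines all 7 were also below 0 h at 0.5 h, with a median of -0.21. Other core classes leaned the same way. At 48 h in NBTII-FGFR1, 4 of 6 beta ring genes, 4 of 5 ATPases and 8 of 9 other cap subunits were below 0 h. At 48 h in NBTII these were 5 of 6, 4 of 5 and 7 of 9. At 0.5 h over both lines they were 5 of 6, 5 of 5 and 6 of 9. The share of all probe sets below 0 h was not counted.

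Among the assembly chaperones of the cap, which bind the ATPases before the ring closes, Psmd10 (gankyrin) and Psmd9 rose between 2 h and 48 h in NBTII-FGFR1. Psmd10 read 10.20 and 10.11 at 48 h against 8.66 and 9.42 at 2 h, and Psmd9 read 9.91 and 9.91 at 48 h against 9.13 and 9.59 at 2 h. The 48 h and 2 h arrays did not overlap for either gene. With 2 arrays on each side this was common. Of the 38 genes, 10 had both 48 h arrays above both 2 h arrays, and 9 had them below. The share over all probe sets was not counted. The rises were 1.12 ± 0.25 for Psmd10 (adjusted p = 0.00676) and 0.55 ± 0.16 for Psmd9 (adjusted p = 0.0317), and Psmd9 rose by 0.59 ± 0.16 at 24 h against 2 h (adjusted p = 0.0284). These 3 calls rest on the 2 h pair, and without 2 h replicate 1 the differences were 0.74 (adjusted p = 0.0824), 0.32 (adjusted p = 0.28) and 0.36 (adjusted p = 0.25). In NBTII the difference of 48 h against 2 h was 0.46 for Psmd10, with an interval of -0.08 to 1.0, and 0.08 for Psmd9. Across the 21 arrays Psmd9 and Psmd10 correlated at r = 0.71. Psmd5, the third chaperone, was called in none.

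Of the other cap subunits Psmd4, which binds ubiquitin chains, was called. It read 9.85 and 9.90 at 24 h and 9.84 and 9.79 at 48 h against 9.31 and 9.51 at 2 h in NBTII-FGFR1, with rises of 0.46 ± 0.11 (adjusted p = 0.0139) and 0.41 ± 0.11 (adjusted p = 0.0215). Without 2 h replicate 1 they were 0.36 and 0.31 (adjusted p = 0.109 and 0.154). The ATPases Psmc1 to Psmc5 and the other 8 cap subunits were called in none of the 17 comparisons.

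**Figure D4:**
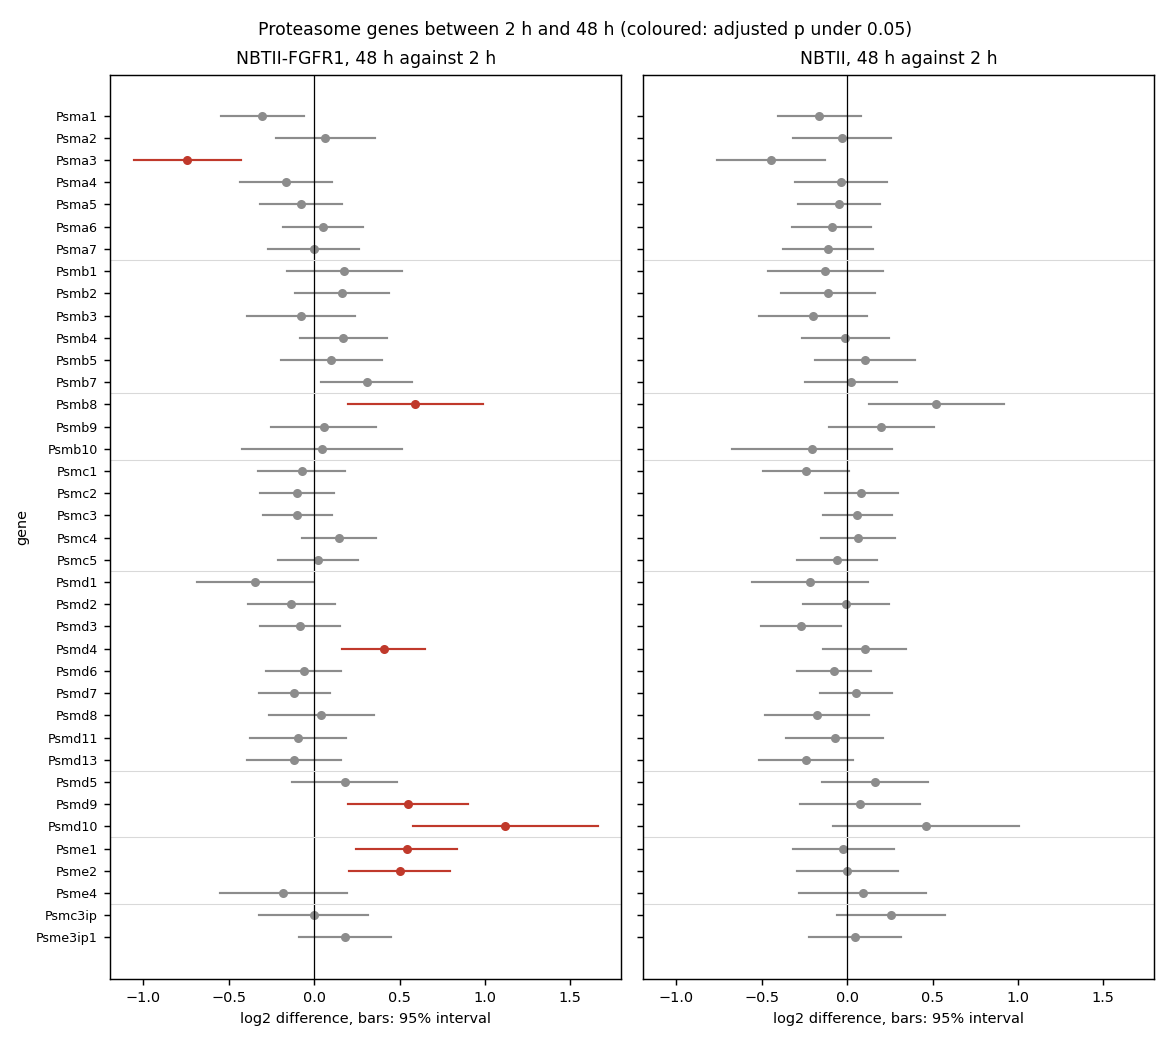
Log2 difference of 48 h against 2 h with its 95% interval for each of the 38 genes, in NBTII-FGFR1 (left) and NBTII (right); red marks an adjusted p under 0.05, grey the rest. In NBTII-FGFR1, Psma3 lies lowest and Psmd10 highest, and in NBTII no gene is red.

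Averaged over 2 to 48 h, the lines differed in 6 of the 38 genes, of which 3 were higher in NBTII-FGFR1, and 16.5% of all probe sets were called, 8.34% higher and 8.12% lower. Psme2 (0.23 ± 0.07), Psme4 (0.28 ± 0.09) and Psma1 (0.28 ± 0.06) were higher in NBTII-FGFR1, and Psma7 (-0.21 ± 0.06), Psmb10 (-0.48 ± 0.11) and Psme3ip1 (-0.34 ± 0.06) were lower. The calls for Psma1 (adjusted p = 0.00455), Psmb10 (adjusted p = 0.00795) and Psme3ip1 (adjusted p = 0.00238) held in all 18 fits that left out 1 array. Those for Psma7 (adjusted p = 0.0282), Psme2 (adjusted p = 0.0325) and Psme4 (adjusted p = 0.0426) were lost in 10, 9 and 16 of them. After repeated quantile normalization 1 gene was called higher and 6 lower in NBTII-FGFR1, and Psme2 and Psme4 were no longer called. The size of each difference is below 0.5, and 36 of the 38 genes had a 95% interval within 0.5 of 0.

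Psma1 read 10.13 to 10.72 in the 8 NBTII-FGFR1 arrays over 2 to 48 h and 10.04 to 10.32 in the 8 NBTII arrays. The lines overlapped at 48 h, where Psma1 read 10.13 and 10.27 in NBTII-FGFR1 against 10.16 and 10.07 in NBTII. Psma7 read 11.07 to 11.57 in NBTII-FGFR1 and 11.49 to 11.85 in NBTII, and Psmb10 read 6.10 to 7.05 in NBTII-FGFR1 and 6.80 to 7.81 in NBTII, so both overlapped. Psme3ip1 read 8.99 to 9.28 in the 8 NBTII-FGFR1 arrays and 9.37 to 9.62 in the 8 NBTII arrays, and no NBTII-FGFR1 array reached the lowest NBTII one. It was the 1 gene of the 38 without overlap, and the share over all probe sets was not counted. The library labelled NBTII-FGFR1 0 h replicate 1 read 9.46 for Psme3ip1, within the NBTII range, while replicate 2 read 9.16. Hmox1 and Txnrd1 went the other way, with that library at the level of replicate 2 and above NBTII at 0 h. Which line the library came from was not tested. Psmc3ip, the other gene outside the complex, was called in none of the 17 comparisons.

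Psme4, the PA200 activator, read 8.43 and 8.57 at 0 h, 8.08 at 0.5 h, 8.92 and 8.94 at 2 h, 8.41 and 8.76 at 6 h, 8.58 and 8.57 at 24 h, and 8.72 and 8.78 at 48 h in NBTII-FGFR1. In NBTII the gene read 8.45 at 0 h, 8.56 at 0.5 h, 8.02 and 8.70 at 2 h, 8.59 and 8.56 at 6 h, 8.30 and 8.38 at 24 h, and 8.56 and 8.34 at 48 h. Its 2 other probe sets gave line differences of 0.59 ± 0.13 (adjusted p = 0.00526) and 0.44 ± 0.12 (adjusted p = 0.0235), so all 3 were higher in NBTII-FGFR1. One of them fell at 48 h against 2 h in NBTII-FGFR1 (-0.79 ± 0.25, adjusted p = 0.0409), while the probe set used here differed by -0.18. The other gene with several probe sets, Psmd11, was called in none by either probe set.

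**Figure D5:**
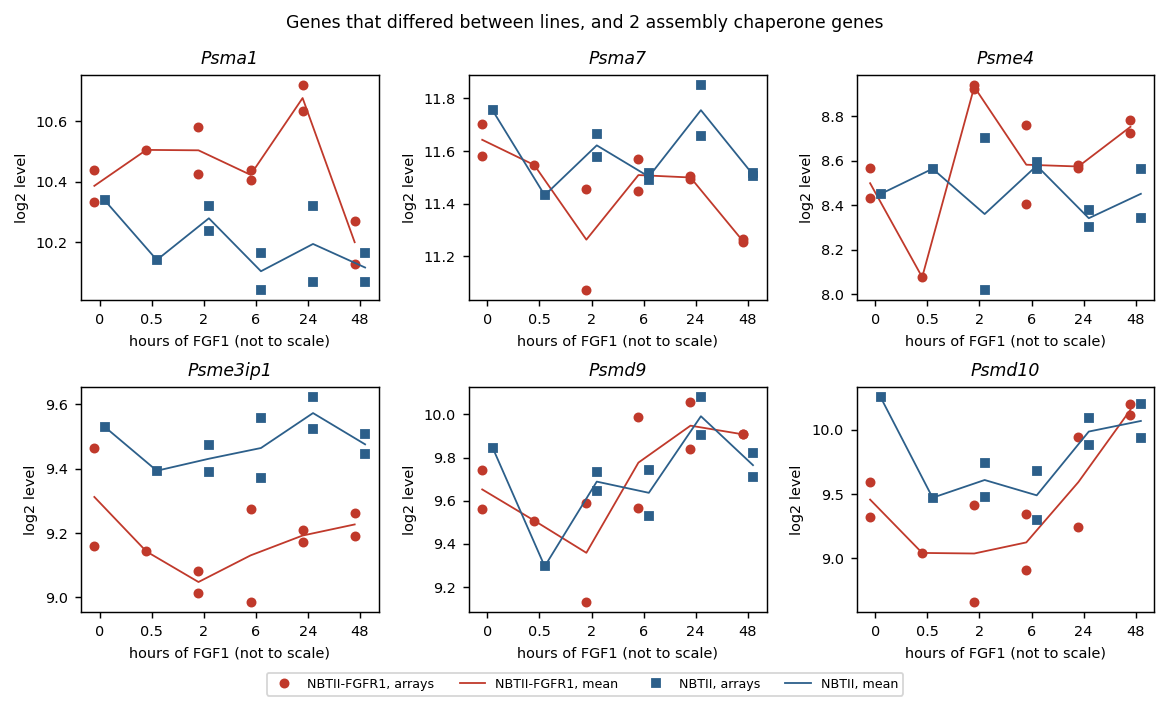
Log2 level by hours of FGF1 for Psma1, Psma7, Psme4 and Psme3ip1, which differed between the lines, and for the assembly chaperones Psmd9 and Psmd10, in NBTII-FGFR1 (red circles) and NBTII (blue squares); points are arrays and lines join the group means. Psme3ip1 is the 1 of the 38 genes whose arrays over 2 to 48 h do not overlap between the lines. The share over all probe sets was not counted.

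Genes that assemble, regulate or feed the proteasome were counted as lists. Of 9 assembly chaperones, which include Psmd5, Psmd9 and Psmd10, 8 were measured, and at 6 h against 0 h in NBTII-FGFR1 2 fell and 0 rose, with a median of -0.26 against 0.02 over all probe sets. That count is near the background, since 21.3% of all probe sets were called. Psmg2 fell by 0.86 ± 0.13 and Psmg1 by 0.75 ± 0.13, both chaperones of the 20S core. Psmg2 also fell in NBTII at 6 h (-0.75 ± 0.16), the 1 call of the list there, where 5.9% of all probe sets were called, and Psmg1 was also lower at 48 h in NBTII-FGFR1 (-0.53 ± 0.13). The line difference over 2 to 48 h was called for Psmg3 alone (-0.39 ± 0.10), while 16.5% of all probe sets were called.

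Of 8 regulators of proteasome gene transcription 6 were measured. At 2 h against 0 h in NBTII-FGFR1 2 rose, Mafk (1.43 ± 0.17) and Mafg (1.11 ± 0.19), small partners of the NRF factors, while 9.35% of all probe sets were called and 5.27% were called higher. At 48 h against 0 h in NBTII-FGFR1, 2 of the 6 rose (Nfe2l1, and Mafg by 0.60 ± 0.19) and 1 fell (Ddi2, the protease that activates Nfe2l1, by 0.63 ± 0.19), while 21.4% of all probe sets were called. Nfe2l1, the factor that drives proteasome genes when the complex is short, rose at 48 h against 0 h by 0.72 ± 0.14 in NBTII-FGFR1 and by 0.90 ± 0.17 in NBTII, where it was the 1 call of the list and 0.908% of all probe sets were called. Nfe2l1 read 8.09 and 7.89 at 48 h against 7.26 and 7.26 at 0 h in NBTII-FGFR1, and 7.63 and 7.82 at 48 h against 6.83 at 0 h in NBTII. At 48 h against 0 h, no rise was called among the 27 core genes in either line; against 2 h, Nfe2l1 (0.70 ± 0.14) and the core gene Psmd4 both rose in NBTII-FGFR1.

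Targets of NRF2, the antioxidant response factor, were counted at 2 h against 0 h, when 0 core genes were called in either line. Whether NRF2 acts on the core genes in these cells was not tested. Of 12 listed 9 were measured, and 5 rose and 0 fell in NBTII-FGFR1, while 9.35% of all probe sets were called and 5.27% were called higher. The median was 0.81 in the list and -0.06 over all probe sets. Srxn1 rose by 3.41 ± 0.21, Hmox1 by 3.02 ± 0.27 and Txnrd1 by 2.01 ± 0.17 in NBTII-FGFR1, all stress-defence enzymes. In NBTII, where 2.94% of all probe sets were called, 3 of the 9 rose, with Hmox1 at 3.05 ± 0.33, Srxn1 at 2.32 ± 0.25 and Txnrd1 at 1.85 ± 0.20. At 2 h against 0 h the medians of the alpha and beta rings were -0.20 and -0.20 in NBTII-FGFR1 and -0.14 and -0.09 in NBTII. Median deviations from the gene means over 21 arrays were -0.28 and -0.46 in NBTII-FGFR1 2 h replicate 1. They were -0.06 and -0.02 in replicate 2. In the 1 NBTII array at 0 h they were 0.24 and 0.20. Of the NRF2 list, 5 rose and 1 fell at 6 h against 0 h in NBTII-FGFR1, and 4 rose and 1 fell at 48 h. Of all probe sets, 21.3% and 21.4% were called there.

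Of 22 partners and ubiquitin suppliers 13 were measured, and 4 were called at 6 h against 0 h in NBTII-FGFR1, with a median of -0.05, while 21.3% of all probe sets were called. Adrm1, the cap's ubiquitin receptor, rose by 0.70 ± 0.14 and Nploc4, a cofactor of Vcp, by 0.48 ± 0.14, and the shuttle genes Ubqln2 and Rad23b fell by 0.80 ± 0.17 and 0.44 ± 0.14. At 48 h against 2 h limma called 0 of the 13 in either line, with 0 at an unadjusted p under 0.05 in NBTII-FGFR1 and 2 in NBTII.

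Across the 21 arrays the members moved together to different degrees, which is given as a description since the arrays share their differences in level and quality. Pairs of beta ring genes had a median r of 0.74, pairs of 20S ring genes 0.62 and pairs of 19S genes 0.38. Psme1 and Psme2 correlated at 0.44, and Psmb8 and Psmb9 at 0.32. The PA28 genes had a median r of -0.01 with the 20S rings.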

How the data were processed

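Total RNA of 21 samples was hybridised to Affymetrix rat arrays. The authors deposited log2 values; the submitters' processing notes name RMA, without a version. The table has 15923 probe sets, and 57 control probe sets were left out. Nothing was normalised again in the values reported. A linear model over the 12 groups of line and time was fitted with limma 3.58.1 in R 4.3.3 to 15866 probe sets, with 9 residual and 5.68 prior degrees of freedom. P-values were adjusted by Benjamini-Hochberg over all probe sets in each of the 17 comparisons, and calls are adjusted p under 0.05. The fit was tested on simulated data.

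Gene symbols came from the platform annotation, in which 12783 probe sets have 1 symbol, 312 several and 2771 none. Promoters and start sites came from RefSeq (GRCr8). Members and lists were chosen with earlier results of these data known. All members may be named. Values in every array are given for the immunosubunits, their counterparts and the activators, and up to 4 genes per list and comparison are named. Replicate numbers were not used to pair the samples in the values reported. The differences of replicate 2 minus 1 correlated above 0.1 in 15 of 36 pairs of groups. The median correlation was 0.02, with values of -0.13 to 0.35, so a shared replicate effect in some groups is not excluded. The alternatives were a filter on dim probe sets, repeated quantile normalization, a replicate block, trend and robust eBayes, averaging the probe sets of one gene, and each array left out. Leaving out both doubted arrays together was added after seeing the data.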

Additional observations from a re-analysis of the deposited data

How the results depend on the processing

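No called result changed its direction under the alternatives tried. Of 25 calls, 5 held in all 18 fits that left out 1 array (Psma3 at 48 h against 0 h and 2 h in NBTII-FGFR1, and Psma1, Psmb10 and Psme3ip1 between the lines), and 20 were lost in at least 1. Over these fits the count of called genes in NBTII-FGFR1 was 0 to 6 at 2 h, 0 to 3 at 6 h, 0 to 0 at 24 h and 2 to 9 at 48 h against 0 h, and 0 to 9 at 6 h, 0 to 11 at 24 h and 1 to 8 at 48 h against 2 h. In NBTII it was 0 to 0 at 2 h, 0 to 1 at 6 h, 0 to 0 at 24 h and 0 to 1 at 48 h against 0 h, and 0 to 0 at 6 h, 0 to 2 at 24 h and 0 to 1 at 48 h against 2 h. It was 0 to 0 at 0.5 h, 3 to 12 between the lines and 0 to 1 for line by time. Where a fit leaves 1 array in a group, that array is assumed to vary like the other groups.

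Without both doubted arrays, an alternative chosen after seeing the data, 13 calls were lost. The counts in NBTII-FGFR1 were then 0 at 2 h against 0 h, and 0 at 6 h, 2 at 24 h and 2 at 48 h against 2 h, and in NBTII 1 at 6 h and 1 at 48 h against 0 h, and 2 at 24 h and 1 at 48 h against 2 h. Without probe sets below the median, which leaves out Psmb8 and Psmb9, the counts were 0 at 2 h and 1 at 6 h against 0 h in NBTII-FGFR1, and 1 at 6 h against 0 h in NBTII. After repeated quantile normalization they were 1 at 6 h against 0 h and 3 at 6 h against 2 h in NBTII-FGFR1, and 3 calls were lost. With the replicate number as a block, 7 genes were called at 48 h against 0 h in NBTII-FGFR1, and 0 of the 25 calls were lost. The pairing check bore out such a block for 15 of 36 pairs of groups. Beyond the filter and the arrays left out, the cause was not tested. Single arrays at 0 h in NBTII and at 0.5 h limit those comparisons.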
